A study of Mus musculus with 30 samples.

Results

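Peritoneal macrophages of COX-2>COX-1 mice that had received lipopolysaccharide (LPS) were compared with those of wild-type mice that had received the vehicle, over the genes of an nCounter panel for mouse inflammation. A gene entered the comparison if its signal was above 20 in at least 6 of the 12 samples, and 194 of the 248 target genes of the panel met this rule. Of the 30 samples in the series, each from a C57BL/6 mouse between 12 and 16 weeks old, the 18 of 3 groups (6 each) are described here. Wild-type mice were injected into the peritoneum with PBS (WT-LPS) or with 2 mg/kg of LPS in PBS (WT+LPS), COX-2>COX-1 mice were given the same dose of LPS, and cells were collected 6 h later. From what is known of this line, the coding sequence of Ptgs2, which encodes COX-2, stands in the locus of Ptgs1, which encodes COX-1, in place of the native one, while the Ptgs2 locus itself is intact. No exchange mice received the vehicle, so genotype and LPS cannot be told apart in the comparison with WT-LPS, and the WT+LPS mice serve as the group that shares the LPS but not the exchange. The question that the comparison addresses is how much of the induced and repressed program of LPS is reached without native Ptgs1.

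LPS is a glycolipid of the outer membrane of Gram-negative bacteria. On macrophages it is bound by Tlr4 with its partner Ly96 (MD-2), and the adaptor Myd88 relays the signal to NF-kB and the MAP kinases, which switch on chemokine and cytokine genes, while a second adaptor pathway leads to type I interferon and from there to interferon-stimulated genes. The cyclooxygenases oxidise arachidonic acid, which phospholipase A2 enzymes such as Pla2g4a release from membranes, to the common precursor of prostaglandins, prostacyclin and thromboxane; resting peritoneal macrophages are known to make Ptgs1 constantly and Ptgs2 after stimulation. The prostanoids act back on the same cells through G protein-coupled receptors, some of which dampen cytokine output by raising cyclic AMP.

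The letters next to the start sites of a few of these genes are given as a description, and the use of any element was not tested. Ptgs1 and Ptgs2 are shown because the exchange leaves the promoter of Ptgs1 in place and puts the coding sequence of Ptgs2 behind it. Cxcl10, Cxcl1 and Ifit1 are shown as genes with a large rise that carry a match to a kappa-B element (the binding motif of NF-kB), an interferon-stimulated response element (ISRE) or both. Other genes with a large rise, such as Il22 and Il17a, held neither motif in their promoter windows. Each line gives the 250 bases before the start site, 5′ to 3′ on the strand of the gene, from RefSeq on GRCm38.p6, with matches to GGANTTTCC (kappa-B) or GAAANNGAA (ISRE) on either strand in capitals.
Ptgs1: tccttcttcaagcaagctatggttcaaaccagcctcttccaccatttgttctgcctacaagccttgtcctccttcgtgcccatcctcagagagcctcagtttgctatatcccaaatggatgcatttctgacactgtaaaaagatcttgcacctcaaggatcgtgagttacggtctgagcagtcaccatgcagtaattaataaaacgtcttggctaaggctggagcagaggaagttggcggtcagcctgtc
Ptgs2: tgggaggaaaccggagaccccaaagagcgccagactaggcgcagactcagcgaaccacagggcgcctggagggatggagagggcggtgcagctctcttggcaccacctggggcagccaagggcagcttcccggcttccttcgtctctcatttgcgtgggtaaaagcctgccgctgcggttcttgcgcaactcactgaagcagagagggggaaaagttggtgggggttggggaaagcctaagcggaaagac
Cxcl10: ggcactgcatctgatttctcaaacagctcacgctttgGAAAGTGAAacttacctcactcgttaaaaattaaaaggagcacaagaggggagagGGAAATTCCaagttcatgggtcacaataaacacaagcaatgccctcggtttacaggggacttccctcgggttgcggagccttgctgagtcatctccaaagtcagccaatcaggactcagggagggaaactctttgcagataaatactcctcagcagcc
Cxcl1: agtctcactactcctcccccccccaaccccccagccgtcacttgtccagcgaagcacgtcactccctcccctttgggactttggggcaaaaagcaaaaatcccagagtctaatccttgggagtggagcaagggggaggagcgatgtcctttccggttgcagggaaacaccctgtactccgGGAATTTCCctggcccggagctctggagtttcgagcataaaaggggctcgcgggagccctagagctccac
Ifit1: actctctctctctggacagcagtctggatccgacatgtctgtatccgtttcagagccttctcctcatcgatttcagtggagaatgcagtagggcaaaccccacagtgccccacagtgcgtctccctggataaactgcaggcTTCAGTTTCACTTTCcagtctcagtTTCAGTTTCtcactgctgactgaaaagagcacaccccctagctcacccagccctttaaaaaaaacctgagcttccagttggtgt
These windows lie at chr2:36230176-36230425 (plus strand) for Ptgs1, at chr1:150099781-150100030 (plus strand) for Ptgs2, at chr5:92348890-92349139 (minus strand) for Cxcl10, at chr5:90890995-90891244 (plus strand) for Cxcl1 and at chr19:34640639-34640888 (plus strand) for Ifit1. In Cxcl10 the kappa-B match began 158 bases and the ISRE match 213 bases before the start, and in Cxcl1 the kappa-B match began 70 bases before it. Ifit1 held 3 ISRE matches, which began 109, 103 and 84 bases before the start, and the first and second of them overlap.

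Total signal of target and reference genes ran from 634114 to 773828 per sample in COX-2>COX-1, from 471534 to 529612 in WT-LPS and from 620696 to 766533 in WT+LPS. The counts behind these values, estimated from the steps between low values, ran from 519661 to 760348, from 298390 to 717120 and from 485431 to 701289, in the same order. The samples were spread over 3 runs, each with 2 lanes of each group, and the lanes differed between groups in the same way in each run, so lane and group cannot be told apart. The deposited values are scaled to Cltc and Gapdh, and these 2 reference genes moved in opposite directions, with medians of 8749 and 7589 in WT-LPS against 6194 and 10720.4 in COX-2>COX-1. Of the 4 reference genes outside the scaling, Gusb and Tubb5 had lower medians in COX-2>COX-1 (937 against 3089.9, and 1347 against 2863) and Hprt and Pgk1 had higher ones (1107 against 455, and 2206 against 335). Because of this the choice of scale moves all changes together, and its effect is given beside the counts. As the RNA was brought to 20 ng/µl in every sample, fewer cells of a type and less RNA per cell cannot be told apart in these values.

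Against WT-LPS, 98 of the 194 genes were higher in COX-2>COX-1 after LPS (50.5% of the genes tested) and 69 were lower (35.6%), so that 86.1% passed the test in either direction (limma on log2(signal + 1), Benjamini-Hochberg adjusted p under 0.05, two-sided). The median absolute log2 change was 2.42 among the higher genes and 1.42 among the lower ones. It was 1.97 and 1.42 when genes under 20 in at least 4 mice of a group are set to a bound. The bound comes from raising the values under 20 in that group to 20. With these bounds, 32 higher and 3 lower genes differed by more than 4 log2 units. In 81 genes (41.8%) all 6 COX-2>COX-1 samples lay above all 6 WT-LPS samples, and in 51 genes (26.3%) they lay below them. The median log2 change over all 194 genes was 0.43. Counts of the lists below are to be read beside the shares of 50.5% higher and 35.6% lower. Wild-type mice gave 97 higher (50%) and 72 lower genes (37.1%) when WT+LPS was set against the same WT-LPS samples, with a median of 0.42; the 2 comparisons share those 6 samples.

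The genes differed in how they passed the filter. In 161 genes at least 3 samples of each group were above 20, and of these 73 were higher, 63 lower and 25 did not pass the test. The 25 genes above 20 in fewer than 3 WT-LPS samples could enter only through COX-2>COX-1 and were all called higher, a direction that the filter fixes for most of them. Counts of higher genes in the lists below include such genes. The 8 genes above 20 in fewer than 3 COX-2>COX-1 samples could enter only through WT-LPS, and 6 of them were called lower. The filter fixes this direction for Map2k6, Ppp1r12b, Ptgs1 and Tbxa2r, which were above 20 in no COX-2>COX-1 sample. A total of 54 target genes were not tested, 46 of which were above 20 in fewer than 3 samples of either group. Just outside the rule, with 5 of 12 samples above 20, were Ager, Hmgb2, Ifna1, Il12b and Il23r; genes just inside, with 6 of 12, ranged in median COX-2>COX-1 signal from 1.37 (Tbxa2r) to 57073 (Cxcl10).

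The scale decided part of the split between higher and lower genes. On equal total signal the counts were 81 higher and 87 lower, on all 6 reference genes 91 and 78, on the 4 reference genes without Gapdh and Pgk1 115 and 52, and on equal medians of the genes tested 68 and 101. The median change over all genes moved by -0.46, -0.19, 0.51 and -0.88 log2 units under these scales. The sign held under all 4 of them for 81 of the 98 higher and 63 of the 69 lower genes. The call held under all 4 for fewer, 68 of the higher and 52 of the lower genes. The 17 higher genes with a change of sign were Bcl6, Birc2, Ccl24, Cfl1, Ddit3, Il12a, Il1rap, Lta, Map2k4, Mapk8, Mapkapk2, Nfe2l2, Ptk2, Rela, Tlr2, Tlr7 and Tollip, and the lower ones included Atf2, Keap1, Shc1, Tgfb1 and Tlr6. On equal medians Bcl6, Birc2, Ddit3, Il1rap, Map2k4, Mapk8, Nfe2l2, Ptk2, Rela, Tlr7 and Tollip passed the test as lower. On the 4 reference genes Tgfb1 passed it as higher. Within the runs, which each hold 2 mice of either group, 98 of the 98 higher and 66 of the 69 lower genes had the same sign in all 3.

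The genotype was visible in the first gene. Ptgs1 signal was 2096 to 3062 (median 2580.1) in WT-LPS, and in COX-2>COX-1 it was 1 to 5.77 (median 1.81), under the 20 of the filter in every mouse. In WT+LPS it was 156 to 347 (median 242). The 3 groups did not overlap, and the exchange mice lay at the floor of the panel. Ptgs1 was lower than in WT-LPS by at least 132-fold, and on the log2 scale it differed from WT+LPS by -6.18 (95% interval -6.72 to -5.64); both differences gave p = 0.0022 in an exact two-sided permutation test, the smallest that 6 against 6 samples allow (0.0029 after adjustment over 4 tests).

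Ptgs2 signal was 1 to 30.7 (median 2.23) in WT-LPS and 4714 to 10194 (median 5320.3) in COX-2>COX-1 after LPS, with WT+LPS at 3719 to 7007 (median 4664). Every COX-2>COX-1 mouse lay far above every WT-LPS mouse, while the 2 LPS groups overlapped. Ptgs2 was at least 288-fold higher than in WT-LPS (exact permutation p = 0.0022, adjusted 0.0029). Its difference from WT+LPS was 0.36 (95% interval -0.68 to 1.40) on the log2 scale and did not pass (exact permutation p = 0.15, adjusted 0.15), but without WT+LPS replicate 52 it was 0.47 with an unadjusted exact permutation p of 0.030. Which of the Ptgs2 copies, native or inserted, gave the counts was not measured.

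**Figure D1:**
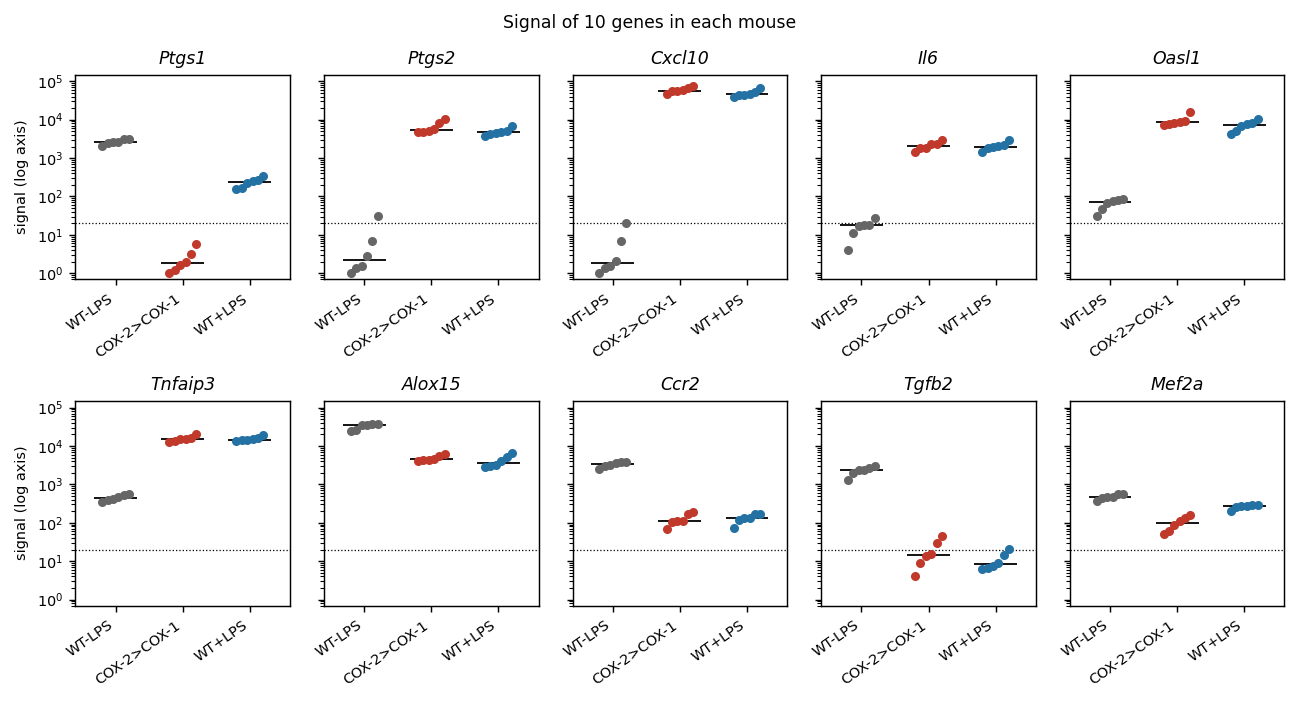
Signal of 10 genes on a log axis in the 6 mice of each group, with 1 point per mouse, a bar at the group median and a dotted line at the signal of 20 used as filter. Ptgs1 lay between 1 and 5.77 in COX-2>COX-1, the inducible genes sat near the level of WT+LPS, and Mef2a lay below WT+LPS in all 6 mice.

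Chemokines rose in COX-2>COX-1. All 3 neutrophil-attracting chemokines tested and all 8 monocyte and lymphocyte chemokines tested were higher, with median log2 changes of 7.05 and 8.19 (7.05 and 7.67 with bounds) against 0.43 over all genes. Over all genes 50.5% were higher. Cxcl3, Ccl4, Ccl7, Ccl8, Cxcl9 and Cxcl10 were above 20 in fewer than 3 WT-LPS samples. These genes could enter only through COX-2>COX-1, so the filter bears on their direction and on the counts. Cxcl10, which draws T cells through Cxcr3 and is a classic target of interferon, had a signal of 1 to 19.8 (median 1.86) in WT-LPS and of 46575 to 74737 (median 57073) in COX-2>COX-1. The groups lay apart by at least 2948-fold. The log2 change was 13.74 ± 0.42 (SE, n = 6 per group, limma adjusted p = 4.1e-16), beside 13.46 in WT+LPS.

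Cxcl1, Cxcl2 and Cxcl3 encode ligands of the neutrophil receptor Cxcr2. Cxcl1 signal was 43.7 to 135 (median 82.2) in WT-LPS and 6834 to 14837 (median 10676) in COX-2>COX-1, 133-fold higher. Cxcl2 signal was 63.7 to 242 (median 135) in WT-LPS and 7179 to 10443 (median 9406) in COX-2>COX-1, 66.6-fold higher. Cxcl3 signal was 1.18 to 6.42 (median 2.79) in WT-LPS and 4211 to 10292 (median 6261) in COX-2>COX-1, at least 308-fold higher. No sample of one group reached the other in any of these 3 genes. Their log2 changes were 7.05 ± 0.29, 6.06 ± 0.24 and 10.71 ± 0.28, with limma adjusted p-values of 3.4e-14, 2.1e-14 and 5.0e-17. Against WT+LPS the differences of the list ranged from -0.19 to 0.05 log2 units and none passed. The fourth gene of the list, Cxcl5, was above 20 in 4 COX-2>COX-1 mice and in no WT-LPS mouse and was not tested.

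Among ligands for monocytes and lymphocytes, Ccl4 (MIP-1 beta) signal was 1.39 to 9.27 (median 4.58) in WT-LPS and 4409 to 18667 (median 6644) in COX-2>COX-1. Ccl7, a ligand of Ccr2 on monocytes, had a signal of 6.42 to 21.3 (median 10.04) in WT-LPS and of 7334 to 11942 (median 10603) in COX-2>COX-1. Ccl3 (MIP-1 alpha) had a signal of 13.7 to 46.4 (median 31.8) in WT-LPS and of 9826 to 18354 (median 12267) in COX-2>COX-1. In all 3 the groups were far apart, and the changes were at least 376-fold, at least 498-fold and 439.6-fold with limma adjusted p-values of 1.6e-15, 8.4e-18 and 1.5e-16. The other members of the list were chosen for mention after their values were seen: Ccl2 rose 109.5-fold, Ccl5 26.6-fold, Cxcl9 at least 98.7-fold and Ccl8 at least 1.93-fold. Ccl5 was well expressed before LPS, with 1047 to 1728 (median 1670.4) in WT-LPS. Ccl19, Ccl20 and Ccl21a were not tested.

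The 3 type 2 chemokines tested were also higher, beside 50.5% over all genes, with a median log2 change of 3.17 (2.65 with bounds). Ccl22, a ligand of Ccr4 on Th2 and regulatory T cells, had a signal of 12.5 to 56.3 (median 33.05) in WT-LPS and of 1231 to 4791 (median 1848) in COX-2>COX-1. Ccl17, the other ligand of Ccr4, had a signal of 7.70 to 17.8 (median 15.9) in WT-LPS and of 64.1 to 232 (median 123) in COX-2>COX-1. For both genes every COX-2>COX-1 mouse lay above every WT-LPS mouse, 67.1-fold and at least 6.28-fold higher (limma adjusted p = 6.4e-12 and 1.1e-09). Ccl17 could enter only through COX-2>COX-1, so the filter bears on its direction. Ccl24 (eotaxin-2) had overlapping groups and a change of 1.72-fold (adjusted p = 0.0022), whose sign turned to -0.10 log2 units on equal medians.

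Chemokine receptors split. Ccr2, the receptor that brings monocytes out of marrow and into tissue, had a signal of 2452 to 3908 (median 3334) in WT-LPS and of 69.9 to 190.1 (median 113) in COX-2>COX-1. All 6 COX-2>COX-1 mice lay below the lowest WT-LPS mouse, and the drop was 27.1-fold (log2 change -4.76 ± 0.23, limma adjusted p = 3.7e-13), beside -4.67 in WT+LPS. Ccr1 and Cxcr4 also fell, by log2 values of -1.12 and -0.96, the latter chosen after its value was seen. Cxcr2 rose from under 3 to 23.7 to 113 (median 34.4), at least 2.12-fold higher, and Ccr7, which guides dendritic and T cells to lymph nodes, rose 2.47-fold from 999 to 2129 (median 1601) to 2466 to 6907 (median 3427). The list of 5 tested receptors held 2 higher and 3 lower genes, beside 50.5% and 35.6% over all genes, with a median of -0.96. Cxcr2 could enter only through COX-2>COX-1.

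Cytokines rose in most cases. Of 14 tested pro-inflammatory cytokines and growth factors 11 were higher, 1 was lower and 2 (Tnfsf14 and Il7) did not pass the test, with a median log2 change of 1.89 (1.52 with bounds) beside 2.01 in WT+LPS. Higher genes made up 50.5% of all genes tested. Csf3 and Il6 are among the genes that could enter only through COX-2>COX-1. Csf3 (G-CSF, the growth factor of neutrophils) was at the floor in WT-LPS, with 1 to 1.66 (median 1.41), and at 2937 to 3883 (median 3597) in COX-2>COX-1. Its values in the exchange mice were close together, all far above WT-LPS, and the change was at least 173-fold with the smallest p of the comparison (log2 10.51 ± 0.15, limma adjusted p = 3.2e-21).

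Il1b, the secreted cytokine of the inflammasome, had a signal of 6.78 to 56.4 (median 38.3) in WT-LPS and of 3753 to 6524 (median 5515) in COX-2>COX-1. Il6, the driver of the acute phase response, had a signal of 3.95 to 27.03 (median 17.7) in WT-LPS and of 1410.0 to 2899.6 (median 2057) in COX-2>COX-1. Both genes were separated without overlap, 177-fold and at least 96.8-fold higher (limma adjusted p = 3.3e-13 and 1.0e-13). Tnf was chosen after its values were seen, and its signal was 50.5 to 77.8 (median 56.4) in WT-LPS and 453 to 1388 (median 491) in COX-2>COX-1, 10.1-fold higher (adjusted p = 3.5e-10). The other higher members ranged in log2 change from 0.69 (Il12a) to 6.97 (Il1a).

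Ltb, which encodes the lymphotoxin beta subunit that anchors lymphotoxin at the cell surface, went the other way. Its signal was 3608 to 4878 (median 3963) in WT-LPS, 341 to 598 (median 422) in COX-2>COX-1 and 180.3 to 479 (median 318) in WT+LPS. The LPS groups both lay below every WT-LPS mouse and overlapped each other. The drop in COX-2>COX-1 was 9.52-fold (log2 -3.25 ± 0.19, limma adjusted p = 9.7e-12), while Lta, its partner, rose 1.69-fold with overlapping groups.

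Regulators of cytokine signalling were mixed. The list of interleukin receptors and antagonists held 5 higher and 2 lower genes of 7 tested, beside 50.5% and 35.6% over all genes. Its median was 1.51 (1.51 with bounds). Il1rn, which encodes the antagonist of the interleukin 1 receptor, had a signal of 1.43 to 13.98 (median 3.48) in WT-LPS and of 1165 to 2416 (median 1535) in COX-2>COX-1, at least 79.96-fold higher (limma adjusted p = 1.4e-13). Il10, an anti-inflammatory cytokine that prostaglandin signalling is known to raise in macrophages, had a signal of 1 to 8.91 (median 1.505) in WT-LPS, 266 to 1286 (median 414) in COX-2>COX-1 and 112 to 359 (median 252) in WT+LPS. Both genes were without overlap against WT-LPS, and Il10 was at least 22.9-fold higher (adjusted p = 5.5e-11). Il1rn and Il10 could enter only through COX-2>COX-1, so the filter bears on their direction and on the count of higher genes. The difference of Il10 from WT+LPS was 1.08 (95% interval 0.10 to 2.06) log2 units and did not pass (adjusted p = 0.25). Il6ra, the ligand-binding chain of the interleukin 6 receptor, fell 4.62-fold from 1478 to 2341 (median 1999) to 359 to 491 (median 441) (adjusted p = 1.3e-11), and Il10rb, chosen after its value was seen, fell 2.12-fold.

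Il18rap, the accessory chain of the interleukin 18 receptor, had a signal of 40.7 to 62.99 (median 52.6) in WT-LPS, 81.4 to 205 (median 168) in COX-2>COX-1 and 215 to 367 (median 239) in WT+LPS. The COX-2>COX-1 mice lay between the other groups without overlap with either. The gene was 2.99-fold higher than in WT-LPS (limma adjusted p = 4.9e-07) and lower than in WT+LPS by the test described further on.

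Interferon-stimulated genes rose together. Of 16 tested, 15 were higher and Ifi27l2a did not pass the test, with a median log2 change of 3.91 beside 3.78 in WT+LPS. The share of higher genes over all genes tested was 50.5%. Oasl1, of the oligoadenylate synthetase-like family, had a signal of 30.8 to 87.4 (median 71.95) in WT-LPS and of 7391 to 15675 (median 8508) in COX-2>COX-1. Ifit1, which binds foreign RNA caps and whose promoter letters are given above with 3 ISRE matches, had a signal of 27.8 to 77.8 (median 56.7) in WT-LPS and of 3973 to 7252 (median 4582) in COX-2>COX-1. Both were without overlap, 147-fold and 97.1-fold higher (limma adjusted p = 8.9e-15 and 8.0e-15).

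Ifi44 had a signal of 1.58 to 101 (median 34.9) in WT-LPS and of 587 to 3622 (median 1705) in COX-2>COX-1. The groups did not overlap, but both were wide, and the change was 71.5-fold (log2 6.16 ± 0.64, limma adjusted p = 3.7e-08), or 5.52 log2 units without WT-LPS replicate 39. The other 12 higher members ranged in log2 change from 0.89 (Oas2) to 5.57 (Ifit2). They include the transcription factors of the pathway, among which Irf7 rose 19.7-fold, Irf1 5.61-fold and Stat2 2.59-fold; these 3 were chosen after their values were seen. Against WT+LPS the differences of the list ranged from -0.68 (Oas2) to 0.58 (Mx2), and none passed. Irf3, a factor upstream of interferon that is not on the list, fell 2.48-fold from 29.4 to 62.4 (median 48.6) to 7.75 to 27.9 (median 22.8).

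Of the receptors that sense bacteria and viruses, 15 genes with their adaptors were tested. Of these 8 were higher, 4 lower and 3 did not pass, beside 50.5% higher and 35.6% lower over all genes. The median of 0.39 was close to that of all genes and turned negative on equal total signal (-0.07) and on equal medians (-0.49). Tlr3, the receptor of double-stranded RNA, had a signal of 1.18 to 8.91 (median 1.505) in WT-LPS and of 52.8 to 214 (median 167) in COX-2>COX-1, at least 6.76-fold higher. Nlrp3, the sensor of the inflammasome, had a signal of 166 to 363 (median 308) in WT-LPS and of 1759 to 2891 (median 1982) in COX-2>COX-1, 7.63-fold higher. Both rose in all 6 mice beyond the WT-LPS range (limma adjusted p = 2.2e-09 and 6.3e-11). Tlr3 could enter only through COX-2>COX-1, so the filter bears on its direction. Myd88 rose 2.62-fold on average (adjusted p = 1.5e-05), but 1 COX-2>COX-1 mouse at 899 lay within the WT-LPS range of 687 to 998 (median 832).

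The LPS receptor itself moved down. Tlr4, chosen after its values were seen, had a signal of 967 to 1433 (median 1172) in WT-LPS, 272 to 887 (median 671) in COX-2>COX-1 and 704 to 897 (median 848) in WT+LPS. The exchange mice all lay below the WT-LPS mice, 1.97-fold lower (limma adjusted p = 2.5e-04), a call that was lost on the 4 reference genes. Ly96, its partner, had a log2 change of -0.08 and did not pass the test. Tlr1 and Tlr8 were also lower, and Tlr2 rose by 0.61 log2 units with a sign that turned on another scale, all 3 chosen after their values were seen.

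Among NF-kB and survival genes 6 of 9 were higher, 2 (Tradd and Ripk1) lower and Traf2 did not pass the test. Over all genes 50.5% were higher and 35.6% lower. The median of the list was 0.70 and turned to -0.18 on equal medians. Tnfaip3, which encodes the deubiquitinase A20 that shuts NF-kB off, had a signal of 356 to 565 (median 439.8) in WT-LPS, 12331 to 20712 (median 15100.4) in COX-2>COX-1 and 13573 to 18781 (median 14588) in WT+LPS. The LPS groups lay over one another and far above WT-LPS. Tnfaip3 was 34.02-fold higher (limma adjusted p = 8.8e-17), and its difference from WT+LPS was 0.01 (95% interval -0.29 to 0.30) log2 units.

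Bcl2l1, an inhibitor of cell death, had a signal of 167 to 196 (median 172) in WT-LPS and of 599.8 to 929 (median 699) in COX-2>COX-1. Relb, a subunit of the alternative NF-kB dimer, had a signal of 655 to 896 (median 793) in WT-LPS and of 1787 to 2635 (median 2142) in COX-2>COX-1. Neither gene overlapped between the groups, and they were 4.06-fold and 2.76-fold higher (limma adjusted p = 2.0e-12 and 2.7e-10). The canonical subunits Nfkb1 and Rela, chosen after their values were seen, rose by log2 values of 0.97 and 0.59, with a sign of Rela that turned on another scale.

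Of 19 tested genes of the MAP kinase cascade 9 were lower, 6 were higher and 4 did not pass the test, beside 35.6% lower and 50.5% higher over all genes. Its median of -0.48 (-0.26 with bounds) turned to 0.04 on the 4 reference genes. Map2k6, the kinase that activates p38, had a signal of 103 to 187 (median 129) in WT-LPS, 1.94 to 7.36 (median 4.12) in COX-2>COX-1 and 1 to 9.27 (median 2.69) in WT+LPS. It was under the filter in all mice that had received LPS, at least 6.59-fold lower in COX-2>COX-1 (limma adjusted p = 1.4e-10). Map2k6 could enter only through WT-LPS, so the filter fixes its direction. Its substrate Mapk14, which encodes p38 alpha, fell 5.61-fold from 1468 to 2219 (median 1797) to 265 to 394 (median 321) (adjusted p = 2.0e-12). Mapk3, which encodes ERK1, fell 5.69-fold from 787 to 1174 (median 1001) to 132 to 246 (median 169.5) (adjusted p = 1.3e-11). In both genes every COX-2>COX-1 mouse lay below every WT-LPS mouse. The 6 higher members, among them Map2k1 and Mapkapk2, rose by at most 1.01 log2 units and were chosen for mention after their values were seen.

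Transcription factors of the AP-1, CREB, MYC, MEF2 and MAF families held 9 higher and 8 lower genes of 19 tested, beside 50.5% and 35.6% over all genes, and 2 (Fos and Hdac4) that did not pass. The median of 0.31 turned to -0.15 on equal total signal and to -0.57 on equal medians. Maff, a small MAF protein, had a signal of 9.56 to 29.4 (median 19.5) in WT-LPS and of 319.6 to 526 (median 358) in COX-2>COX-1, at least 16.9-fold higher. Jun, a subunit of AP-1, had a signal of 232 to 537 (median 314) in WT-LPS and of 1378 to 2037 (median 1684) in COX-2>COX-1, 5.11-fold higher. Both were without overlap (limma adjusted p = 1.2e-12 and 1.3e-10). Maff could enter only through COX-2>COX-1, so the filter bears on its direction.

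The 4 MEF2 genes, which encode transcription factors that recruit or release class II histone deacetylases, did not move as a group. Mef2b rose at least 2.91-fold from 1.18 to 11.8 (median 2.02) to 42.8 to 79.9 (median 55.4), and it could enter only through COX-2>COX-1. Mef2a had a signal of 359 to 574 (median 466) in WT-LPS, 50.4 to 159.9 (median 98.7) in COX-2>COX-1 and 199 to 295 (median 269) in WT+LPS. None of the 3 groups overlapped, and COX-2>COX-1 was the lowest. Mef2a was 5.10-fold lower than in WT-LPS (limma adjusted p = 1.7e-08). Mef2c and Mef2d, chosen after their values were seen, fell 2.92-fold and 1.96-fold, with differences from WT+LPS of 0.03 (95% interval -0.36 to 0.41) and 0.08 (95% interval -0.27 to 0.42) log2 units that did not pass.

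**Figure D2:**
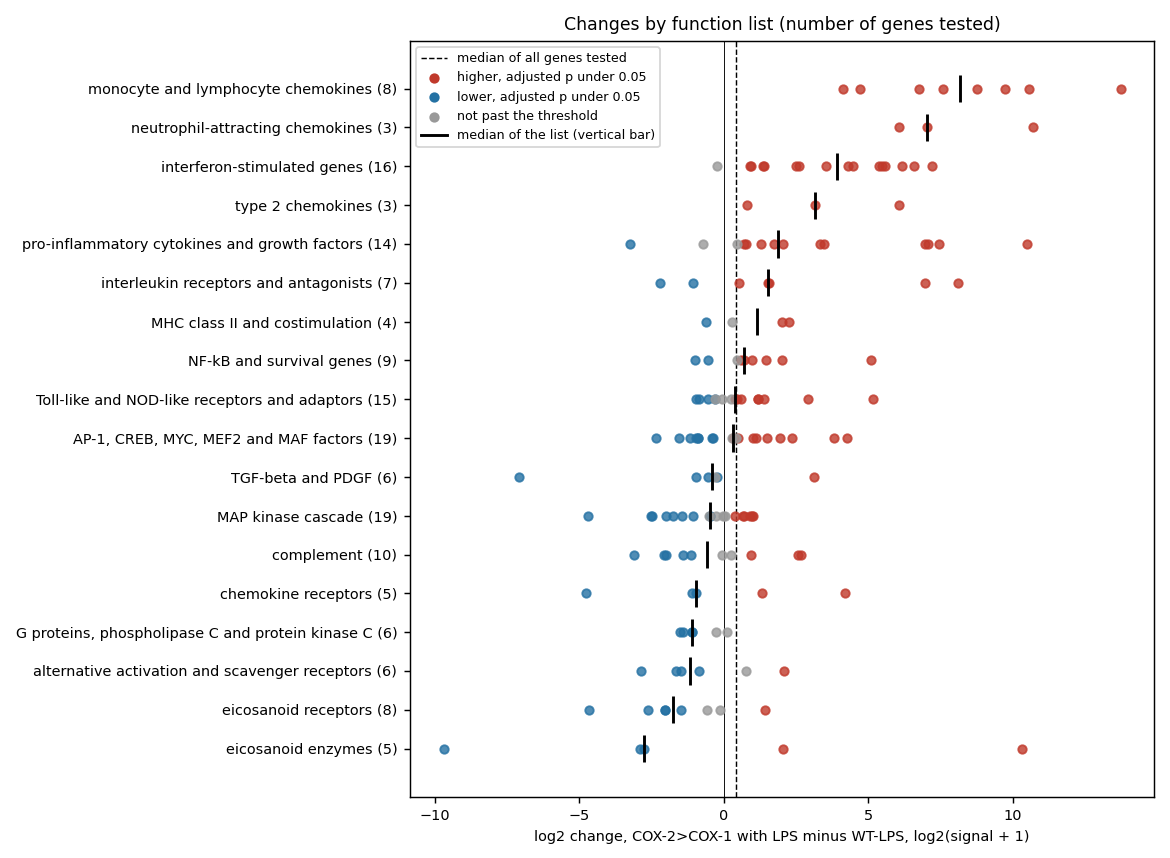
Log2 change of each tested gene in COX-2>COX-1 against WT-LPS, for 18 function lists, with the number of genes tested in brackets; colours give the call, black bars the list medians and the dashed line the median of all 194 genes (0.43). The 2 chemokine lists at the top lay wholly on the right, and the eicosanoid lists at the bottom had medians of -1.76 and -2.78.

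The eicosanoid pathway beyond the exchanged genes was mostly lower. Of the 5 enzymes tested, Ptgs2 and Pla2g4a were higher and Ptgs1, Alox5 and Alox15 were lower, beside 50.5% and 35.6% over all genes. Alox15, the 12/15-lipoxygenase that is typical of resident peritoneal macrophages, had a signal of 25041 to 37348 (median 35707) in WT-LPS, 3955 to 6189.9 (median 4511) in COX-2>COX-1 and 2756 to 6528 (median 3661) in WT+LPS. Alox5, the first enzyme of leukotriene synthesis, had a signal of 891 to 1387 (median 1370.1) in WT-LPS, 141 to 185 (median 161) in COX-2>COX-1 and 132 to 283 (median 194) in WT+LPS. For both lipoxygenases the 2 LPS groups overlapped and lay below every WT-LPS mouse, and the drops in COX-2>COX-1 were 6.85-fold and 7.53-fold (limma adjusted p = 1.1e-10 and 2.5e-12). Pla2g4a, chosen after its values were seen, rose 4.16-fold from 220.5 to 320.3 (median 287) to 949 to 1429.6 (median 1115).

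Of the 8 eicosanoid receptors tested, 5 were lower, 1 higher and 2 did not pass the test, with a median of -1.76 (-1.58 with bounds) beside -1.31 in WT+LPS. Over all genes 35.6% were lower and 50.5% higher. Tbxa2r, the thromboxane receptor, had a signal of 40.1 to 86.1 (median 68.9) in WT-LPS and was at 1 to 2.91 (median 1.37) in COX-2>COX-1. Cysltr1, a receptor of cysteinyl leukotrienes, had a signal of 617 to 739 (median 649) in WT-LPS and of 81.5 to 128 (median 108) in COX-2>COX-1. Ltb4r1, the high-affinity receptor of leukotriene B4, had a signal of 141 to 219 (median 175) in WT-LPS and of 28.1 to 52.3 (median 45.1) in COX-2>COX-1. All 3 were separated without overlap, at least 3.19-fold, 6.25-fold and 4.06-fold lower (limma adjusted p = 5.7e-11, 3.0e-12 and 3.3e-10). Tbxa2r could enter only through WT-LPS, so the filter fixes its direction.

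The receptors of prostaglandin E did not follow one direction; these 4 genes were chosen after their values were seen. Ptger2 fell 4.06-fold from 136 to 192 (median 144) to 24.6 to 52.8 (median 34.9), and Ptger3 rose 2.69-fold from 9.28 to 40.3 (median 22.8) to 33.5 to 76.5 (median 69.2) with overlap. Ptger4 had a log2 change of -0.14 that did not pass, with a signal of 275 to 599.7 (median 335) in COX-2>COX-1 against 289 to 533 (median 399) in WT-LPS and 222 to 308 (median 260.2) in WT+LPS. Ptgir, the prostacyclin receptor, fell 2.81-fold, and its difference from WT+LPS was -0.56 (95% interval -0.93 to -0.20) log2 units (adjusted p = 0.10). Ptger1 was not tested.

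Genes that mark resting macrophages were lower throughout. All 9 macrophage markers tested fell, beside 35.6% lower over all genes, with a median log2 change of -1.52 beside -1.60 in WT+LPS. Their summed signal was 121723 to 166070 per sample in WT-LPS, 37014 to 53343 in COX-2>COX-1 and 38475 to 69485 in WT+LPS, so the defining markers of the labelled cells were present in every sample. C1qa, a chain of the first complement component that macrophages secrete, had a signal of 19966 to 31217 (median 26496) in WT-LPS and of 3870.1 to 8250.0 (median 7027) in COX-2>COX-1, 3.98-fold lower. Trem2, a lipid-sensing receptor, had a signal of 116 to 310.5 (median 272) in WT-LPS and of 17.6 to 48.4 (median 30.9) in COX-2>COX-1, 7.32-fold lower. Both were without overlap (limma adjusted p = 6.2e-09 and 1.4e-08). C3ar1 fell 4.18-fold, Tyrobp 2.87-fold, C1qb 2.68-fold, Itgb2 2.63-fold and Mrc1 1.82-fold, with Mrc1 overlapping between the groups and higher by 0.12 log2 units in run 1 alone.

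Markers of alternative activation followed the same direction in part, with 4 of 6 lower, 1 higher and Arg1 not past the test, and a median of -1.18 beside -0.53 in WT+LPS. The shares over all genes were 35.6% lower and 50.5% higher. Retnla, a secreted product of interleukin 4 signalling, had a signal of 39683 to 75425 (median 54333) in WT-LPS, 13714 to 20330.3 (median 16754) in COX-2>COX-1 and 14892 to 40048 (median 20342) in WT+LPS. It was 3.17-fold lower, without overlap (limma adjusted p = 4.0e-07). Chi3l3 (Ym1) rose 4.27-fold with overlap, from 1.39 to 155 (median 53.9) to 78.7 to 322 (median 151) (adjusted p = 0.0090), and without WT-LPS replicate 37 its log2 change was 1.31 in place of 2.09. Arg1 ran from 1197 to 6256 (median 2439) in COX-2>COX-1 against 767 to 2915 (median 1477) in WT-LPS, and its change of 0.76 ± 0.45 did not pass the test (adjusted p = 0.12).

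Complement genes were divided between both directions. Of 10 tested, 3 were higher (C1s, C2 and Cfb), 5 lower (C1qa, C1qb, C3ar1, C4a and Cd55) and 2 did not pass (C1ra and C3), with a median of -0.60. Over all genes 50.5% were higher and 35.6% lower. Cfb, the factor B of the alternative pathway, had a signal of 1689 to 6338 (median 2628) in WT-LPS and of 5259 to 35184 (median 21659) in COX-2>COX-1. Cd55, which speeds the decay of the convertases on the cell surface, had a signal of 2826 to 5139 (median 3502) in WT-LPS and of 287 to 585 (median 423) in COX-2>COX-1. Cfb overlapped by its lowest COX-2>COX-1 mouse and was 6.36-fold higher, and Cd55 was 8.69-fold lower without overlap (limma adjusted p = 3.2e-06 and 5.4e-12). C1s rose at least 2.20-fold, from a level under the filter, and could enter only through COX-2>COX-1. The complement genes not tested include the terminal components C6, C7, C8a, C8b and C9.

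Growth factors of the TGF-beta family held one of the deepest drops. Tgfb2 had a signal of 1302 to 2974 (median 2360.2) in WT-LPS, 4.13 to 44.1 (median 14.5) in COX-2>COX-1 and 6.44 to 20.7 (median 8.20) in WT+LPS. The LPS groups overlapped near the filter, and Tgfb2 was at least 91.01-fold lower in COX-2>COX-1 (log2 -7.11 ± 0.42, limma adjusted p = 7.0e-12). Tgfb3 went the other way, at least 2.39-fold higher from 1.18 to 12.9 (median 6.01) to 32.9 to 65.2 (median 51.6) (adjusted p = 6.7e-07), and the receptor Tgfbr1 fell 1.93-fold. Tgfb2 could enter only through WT-LPS and Tgfb3 only through COX-2>COX-1, so the filter bears on their directions. In all, 4 of 6 genes of the list were lower, 1 higher and Pdgfa did not pass, beside 35.6% lower and 50.5% higher over all genes. The median of the list was -0.43 and turned to 0.08 on the 4 reference genes.

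Of the genes for antigen presentation and costimulation, Cd86 had a signal of 787 to 1085 (median 916) in WT-LPS and of 3448 to 8849.8 (median 3935) in COX-2>COX-1, and Cd40 rose from 789 to 1034 (median 870.3) to 2798 to 4519 (median 3747). Both were without overlap, 4.83-fold and 4.01-fold higher (limma adjusted p = 1.2e-08 and 1.3e-11). The class II gene H2-Eb1 fell 1.55-fold with overlap, and the call was lost on the 4 reference genes. H2-Ea-ps had a log2 change of 0.28 and did not pass.

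Genes that act on the cytoskeleton moved in both directions. Cfl1, which encodes the actin-severing protein cofilin, and Ptk2, the focal adhesion kinase, were chosen after their values were seen and rose by 0.64 and 0.39 log2 units with signs that turned on other scales. Rac1, a GTPase of membrane ruffling and of the oxidative burst, fell 2.07-fold from 6035 to 7080.2 (median 6433) to 2735 to 3676 (median 3093) (limma adjusted p = 4.1e-09). Limk1, the kinase that inactivates cofilin, had a signal of 445 to 623 (median 558) in WT-LPS, 144 to 208 (median 167) in COX-2>COX-1 and 201 to 265 (median 234) in WT+LPS. Ppp1r12b, a regulatory subunit of myosin phosphatase, had a signal of 44.6 to 68.8 (median 54.5) in WT-LPS, 6.59 to 13.7 (median 8.48) in COX-2>COX-1 and 13.4 to 29.4 (median 17.8) in WT+LPS. In both genes COX-2>COX-1 lay below every WT-LPS mouse, 3.24-fold and at least 2.74-fold lower (adjusted p = 5.9e-11 and 2.2e-09), and its values were also mostly under those of WT+LPS. Ppp1r12b could enter only through WT-LPS, so the filter fixes its direction against WT-LPS.

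Of 6 tested genes of G proteins, phospholipase C and protein kinase C, 4 were lower, beside 35.6% over all genes. Gnas and Gnb1 did not pass, and the median of the list was -1.11. Prkcb fell 2.84-fold from 2844 to 5200.4 (median 4088) to 1148 to 1707 (median 1329). Prkca fell 2.69-fold from 315 to 614 (median 493) to 126 to 243 (median 160.3). Gnaq, the G protein alpha subunit that activates phospholipase C beta, fell 2.16-fold from 1172 to 1457 (median 1324) to 496 to 756 (median 614). None of the 3 overlapped between the groups (limma adjusted p = 4.9e-08, 7.9e-07 and 3.5e-08).

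Of the 12 tested genes in no list, 5 were higher and 4 lower, beside 50.5% and 35.6% over all genes. The other 3 did not pass. Nos2, the inducible nitric oxide synthase, had a signal of 1.39 to 10.4 (median 3.33) in WT-LPS, 2360.1 to 11918 (median 5462) in COX-2>COX-1 and 4740.2 to 7901 (median 6311) in WT+LPS. It was without overlap and at least 269-fold higher (log2 10.14 ± 0.42, limma adjusted p = 3.8e-14), beside 10.32 in WT+LPS. Nos2 could enter only through COX-2>COX-1, so the filter bears on its direction. Hif1a, Daxx, Stat3 and Bcl6 were the other higher genes and Fxyd2, Hmgb1, Irf3 and Nfatc3 the lower ones, all 8 chosen after their values were seen; Hif1a, the oxygen-sensing factor, rose 6.81-fold from 2799.8 to 3664 (median 3232) to 18882 to 27750.2 (median 21242).

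Genes of other cell types also moved. Of 7 tested T and NK cell markers 5 were higher and 2 lower, beside 50.5% and 35.6% over all genes. Of the higher ones, Fasl, Ifng, Il17a and Il22 were above 20 in fewer than 3 WT-LPS samples. They could enter only through COX-2>COX-1, so the filter bears on their direction and on this count. The summed signal of the list was 1243 to 2520 in WT-LPS, 3702 to 10514 in COX-2>COX-1 and 3399 to 5508 in WT+LPS. Ccr7 alone gave 2466 to 6907 of it in COX-2>COX-1. Il22, a cytokine of T and innate lymphoid cells, had a signal of 1 to 4 (median 1.32) in WT-LPS and of 413 to 1799 (median 1248) in COX-2>COX-1. Il17a, from the same cells, had a signal of 1 to 4.08 (median 1.41) in WT-LPS and of 355 to 1446 (median 719.7) in COX-2>COX-1. Ifng, from NK and T cells, had a signal of 1 to 13.7 (median 1.41) in WT-LPS and of 385 to 979 (median 599.7) in COX-2>COX-1. All 3 were under 20 in every WT-LPS mouse and far above it in each COX-2>COX-1 mouse, at least 53.5-fold, at least 36.7-fold and at least 29.8-fold higher (limma adjusted p = 2.0e-14, 3.8e-14 and 2.1e-12).

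The 2 surface proteins of helper T cells on the panel went the other way. Cd4 fell 3.81-fold from 183 to 326 (median 278) to 50.8 to 86.4 (median 67.5), and Cd40lg fell 2.74-fold from 44.3 to 90.9 (median 65.04) to 10.99 to 40.3 (median 20.5) (limma adjusted p = 3.1e-07 and 1.2e-04). Fasl rose at least 1.47-fold with overlap, and Il2 and Il21 were not tested. The part of such cells in the rise of the cytokines was not tested.

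Of 3 tested neutrophil markers Cxcr2 and Csf3 were higher and Mmp9 was lower, beside 50.5% and 35.6% over all genes. Csf3 is a cytokine that macrophages themselves make, and Cxcr1 was under the filter in all mice. The summed signal of the neutrophil list was 65.4 to 231 in WT-LPS, 3114 to 3962 in COX-2>COX-1 and 2372 to 4520.3 in WT+LPS. Csf3 alone gave 2937 to 3883 of it in COX-2>COX-1. Both Cxcr2 and Csf3 could enter only through COX-2>COX-1. Mmp9 fell 2.53-fold from 58.4 to 226 (median 104) to 25.2 to 61.5 (median 44.1) with overlap. Of 4 B cell markers Cd40 was higher, Ltb lower and H2-Ea-ps and Tcf4 did not pass, with summed signals of 5177 to 7416 in COX-2>COX-1 and 6045 to 7742 in WT-LPS. None of the 6 mast cell and eosinophil markers passed the filter. Of the mesothelial and stromal markers 2 were tested, Flt1 and Il1r1, and both were higher, beside 50.5% over all genes. Their signals were 21.6 to 60.9 (median 39.9) and 51.9 to 106 (median 66.4) in COX-2>COX-1. Flt1 could enter only through COX-2>COX-1. Of the members not tested, Areg, Mmp3 and Cxcl5 had higher medians in COX-2>COX-1. Twist2 had a lower one (1.8 against 9.42 in WT-LPS). Summed signals of the list were 31.5 to 69.2 in WT-LPS and 141 to 526 in COX-2>COX-1, where Cxcl5 alone gave 16.4 to 357. The part of these cells in the results was not tested.

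Both COX-2>COX-1 and WT+LPS mice received LPS, and the direct test between them compares the genotypes. Over the same 194 genes 5 passed, all lower in COX-2>COX-1 (2.58%), and none was higher (0%), while 36 genes had an unadjusted p under 0.05. The difference had a median of 0.02 log2 units over all genes, with quartiles of -0.14 and 0.20. The 95% interval lay within 1 log2 unit of 0 for 157 genes and reached beyond it for 37, with a median half-width of 0.41. A gene without a call can therefore still differ by an amount inside its interval.

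Among the 98 genes that were higher than in WT-LPS, 97 were not called against WT+LPS, Il18rap was lower, and 73 had their interval within 1 log2 unit. Among the 69 genes that were lower than in WT-LPS, 65 were not called against WT+LPS, 4 were lower still, and 58 had their interval within 1 log2 unit. The 27 genes that did not pass against WT-LPS gave no call. In 3 genes (1.55%) the samples of the LPS groups did not overlap.

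**Figure D3:**
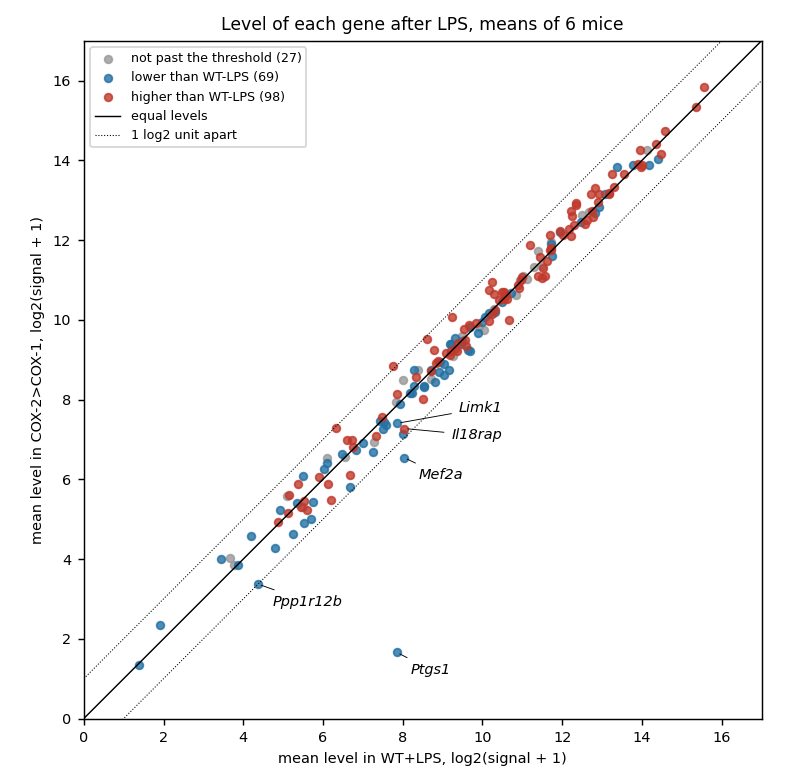
Mean log2(signal + 1) of each of the 194 genes in 6 WT+LPS mice (horizontal) and 6 COX-2>COX-1 mice (vertical), coloured by the call against WT-LPS, with lines for equal levels and for a difference of 1 log2 unit. Most genes lay near the line of equal levels, and the 5 called genes, named in the plot, lay below it, with Ptgs1 far off.

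Beside Ptgs1, the gene of the largest difference was Mef2a. In the signal ranges given above, its highest COX-2>COX-1 value of 160 lay under its lowest WT+LPS value of 199. The difference was -1.49 (95% interval -1.97 to -0.999) log2 units, 2.80-fold lower (limma adjusted p = 4.8e-04). It was -1.49, -1.88 and -1.09 in the 3 runs taken singly, where no gene but Ptgs1 passed.

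Ppp1r12b differed by -0.99 (95% interval -1.43 to -0.56) log2 units (adjusted p = 0.0097), but both LPS groups were mostly under 20, so no fold is given. Il18rap differed by -0.76 (95% interval -1.18 to -0.35) (adjusted p = 0.046) and Limk1 by -0.46 (95% interval -0.70 to -0.22) (adjusted p = 0.041). Both of these calls were lost, leaving 3 genes, without COX-2>COX-1 replicate 54 or 56 and without WT+LPS replicate 51, 52, 53, 55 or 56. They were also lost without COX-2>COX-1 replicate 53, where Creb1 was called, and the Il18rap call was lost without replicate 55. The fit without COX-2>COX-1 replicate 52 gave 8 calls. Mef2a passed in each of the alternatives tried other than the fits of a single run. The genes of next smallest p were Gnaq, Creb1, Mafg and Ptgir, all lower by 0.39 to 0.87 log2 units with adjusted p-values of 0.096 to 0.10, and were chosen after their values were seen except for Gnaq.

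**Figure D4:**
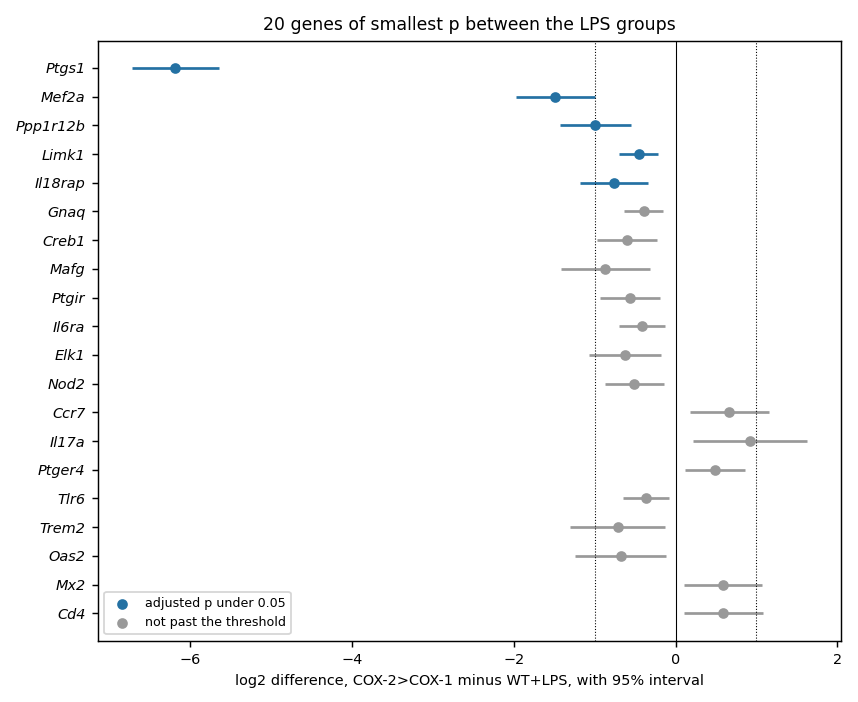
Log2 difference of COX-2>COX-1 from WT+LPS with its 95% interval for the 20 genes of smallest p, with dotted lines at 1 log2 unit in each direction. The 5 genes in blue passed the test, Ptgs1 at -6.18 and the others between -1.49 and -0.46, and 5 of the 15 genes in grey lay on the right of 0.

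The mice of the exchange line spread somewhat more than the wild-type mice. Over the 146 genes above 20 in all 18 samples, the median SD of log2 signal was 0.29 in COX-2>COX-1 and 0.23 in each wild-type group. COX-2>COX-1 replicate 52 stood farthest from its group, with a root mean square deviation of 0.51 log2 units against 0.18 to 0.36 for the other 5 mice. It was the lowest mouse of its group for Cfb (5259), Ifi44 (587), Tlr3 (52.8) and Nos2 (2360.1) and the highest for Arg1 (6256), Il10 (1286), Cxcr2 (113), Chi3l3 (322) and Mafg (346). Without this mouse the comparison with WT-LPS gave 96 higher and 72 lower genes and that with WT+LPS 8 calls, to which Creb1, Elk1 and Mafg were added.

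Promoter windows of 250 bases before to 50 after the start were given by RefSeq for 143 of the 194 genes. The kappa-B letters were found in 13 of 72 higher genes (18.1%), in 1 of 52 lower genes (1.92%) and in 1.45% of the 27025 genes of the whole table. Over the 143 tested genes the share was 10.5% (15 genes), and over the 19 without a call 5.26%. The ISRE letters were found in 14 of 72 higher genes (19.4%), in 6 of 52 lower genes (11.5%) and in 9.76% of all genes. Among the 143 tested genes 21 held them (14.7%), and 5.26% of those without a call. The panel was designed for inflammation, so these shares describe the genes on it. The absence of both motifs from the windows of Ptgs1 and Ptgs2 says only that these letters are not there.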

How the data were processed

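RNA of peritoneal macrophages, at 20 ng/µl and an RNA integrity number of at least 7.0 per the labels' protocols, was measured on an nCounter panel with 248 target and 6 reference genes. The deposited table holds the signal of each gene in 30 samples; judged from these values, which have a minimum of 1 and the same geometric mean of Cltc and Gapdh (8147.9) in each sample, background was removed and the samples were scaled to these 2 genes before deposit. The software and version of these steps are not given in the sources used here. Another deposited table repeats 266 of the rows with the same values.

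Samples were grouped by their titles. Target genes with a signal above 20 in at least 6 of the 12 samples compared were tested on log2(signal + 1) with limma 3.58.1 in R 4.3.3, in one fit over the 18 samples of 3 groups, with Benjamini-Hochberg adjustment over all genes tested at 0.05. Where at least 4 of 6 samples of a group were under 20, a fold change is given as "at least". It was taken from geometric means, with the values under 20 in that group set to 20. Ptgs1 and Ptgs2 were also tested by exact permutation (scipy 1.17.1). The fit was also run on simulated data with all genes raised off the floor, so that run does not cover genes near it. The labels give 6 mice per group, and p-values measure the spread between these samples.

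The comparison and the gene lists were chosen with earlier results of these data known. By rule, the text names Ptgs1 and Ptgs2, the 10 largest changes in each direction, up to 3 called genes per function list, every gene called against WT+LPS with the 5 smallest p-values there, and tested marker genes. Any other gene was named after its values were seen, whether or not this is said at its name. All 254 symbols were matched to RefSeq, 6 of them under another name. A few genes and 1 function list are not reported here. Of 240 negative control values 1 was above 20. Replicate numbers 51 to 56 are shared by COX-2>COX-1 and WT+LPS, but the samples with one number did not deviate together, so no pairing was used. Alternatives covered the filter, pseudocount, scale, samples in the fit, runs, variance model and each mouse left out.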

Additional observations from a re-analysis of the deposited data

Results flagged for a closer look

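In 211 groups of 6 mice of the named genes, 9 held 1 mouse that stood apart from the other 5 by Dixon's test. Chance flags about 1 in 20 groups. COX-2>COX-1 replicate 52 was the lowest mouse for C1qa (3870.1) and the highest for Cd86 (8849.8) and Oasl1 (15675). COX-2>COX-1 replicate 54 was the lowest for Il18rap (81.4) and Myd88 (899). In WT+LPS, replicate 56 was the lowest for Cd40 (2796) and Mef2a (199), replicate 52 the lowest for Il1r1 (46.0) and replicate 54 the highest for Jun (1934).

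The level after LPS differed between the genotypes by the direct test in 5 genes, and since no COX-2>COX-1 mice received vehicle, a difference before LPS cannot be told apart from one in the response. On the log2 scale the level in COX-2>COX-1 minus that in WT+LPS was -6.18 for Ptgs1, -1.49 for Mef2a, -0.99 for Ppp1r12b, -0.76 for Il18rap and -0.46 for Limk1.

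A further 5 genes were outside the rule on low values but lay above every WT-LPS sample in all 6 COX-2>COX-1 mice, with a median above 20. These medians were 54.7 for Cxcl5, 26.7 for Il23r, 25.4 for Ifna1, 22.03 for Il5 and 21.6 for Areg. In WT+LPS the medians of the same genes were 70.9, 37.9, 9.74, 14.4 and 13.3, and none of these genes was tested in the main fit. With no filter, Ifna1 was called against WT+LPS.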

How the results depend on the processing

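Against WT-LPS, the higher calls ranged from 95 to 101 and the lower calls from 66 to 72 with 1 mouse left out. They were 64 higher with a signal above 20 required in all 12 samples, which leaves fewer genes, and 43 lower in run 1 alone. For WT+LPS against WT-LPS the leave-one-out ranges were 93 to 98 and 69 to 73, with 64 higher under the strict filter, and 47 lower on the 4 reference genes and 44 in run 1 alone. Among the genes named by rule the sign turned in 2 cases, Ccl24 to -0.10 on equal medians and Mrc1 to 0.12 in run 1 alone.

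Against WT+LPS the 5 calls became 8 with no filter (Ccl11, Ifna1 and Il21 were added), 3 with the strict filter, which removes Ptgs1 and Ppp1r12b, 12 on equal total signal and 9 on 6 reference genes. The genes added without the filter had higher medians in COX-2>COX-1, at 13.26, 25.395 and 10.96 against 2.07, 9.745 and 1.215 in WT+LPS. Il22, higher by 0.84 log2 units in the main fit, was called without COX-2>COX-1 replicate 55. They were 3 in a fit of the 2 groups alone, 2 with all 5 groups, 3 where the prior variance follows the mean and 1 in each run alone; with 1 mouse left out they ranged from 3 to 8. The cause was not tested. Mice with the same number did not deviate together (correlations from -0.31 to 0.19, each mouse closest to another number), and a replicate block left 2 calls, Mef2a and Ptgs1. The Ptgs2 difference from WT+LPS ranged from 0.22 to 0.47 with 1 mouse left out. Over all alternatives the adjusted p of Mef2a ran from 6.8e-05 to 0.46, that of Il18rap from 0.0081 to 0.70 and that of Limk1 from 0.0095 to 0.77. Over the alternatives of the genes named by rule against WT-LPS, 2076 results kept direction and call, 20 kept only the direction and 2 turned.

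Signals under 20 limit what can be said of genes near the floor. COX-2>COX-1 replicate 51 had a low POS_D control (160 against 385 to 667 elsewhere).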

Other observations

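Interferon transcripts themselves were near the floor. Ifna1 had a signal of 11.7 to 44.1 in COX-2>COX-1, 5.52 to 15.9 in WT+LPS and 1 to 5.39 in WT-LPS. Ifnb1 had a signal of 1 to 27.9 (median 9.61) in COX-2>COX-1, at most 2.88 in WT+LPS and at most 3.38 in WT-LPS. Il21, a cytokine of helper T cells, had a signal of 2.83 to 19.2 in COX-2>COX-1, 1 to 6.01 in WT+LPS and 1 to 1.58 in WT-LPS. Ccl11 (eotaxin) had a signal of 3.87 to 20.7 in COX-2>COX-1, 1 to 4.16 in WT+LPS and 1 to 1.58 in WT-LPS. For these genes most values lay under the 20 that the filter asks for, and the groups overlapped in Ifna1, Ifnb1, Il21 and Ccl11 between the LPS-treated lines. Cxcl5 was spread widely in the exchange mice, from 16.4 to 357, beside 24.8 to 86.2 in WT+LPS.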
